A study of Homo sapiens with 4 samples.

Results

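The Kruppel-like factor (KLF) genes encode transcription factors, and 10 of them were followed here in HEK293A, a line established from human embryonic kidney that grows as epithelium: KLF2, KLF3, KLF4, KLF5, KLF6, KLF9, KLF10, KLF11, KLF13 and KLF16. They were found by matching the Ensembl identifier of each row to its gene symbol, which gave 10 members among the 58736 listed features. All 10 passed the filter on low values and were among the 16362 genes tested. The study asked how gene expression responds when DNA probes that form hairpins direct FEN1, an enzyme that trims flaps of DNA during replication. RNA sequencing covered 4 libraries in 2 groups of 2. All wells were seeded with 300000 cells and given 1 µg of FEN1 plasmid 24 h later, then 500 pmol of DNA probes after another 48 h, and RNA was taken after 72 h. The groups differed by label in what was transfected: negative control (replicates 1 and 3) or NT1_hp2 (replicates 2 and 3). Neither the control probe nor the gene that NT1_hp2 was aimed at is given in the sources used here, and no wells without FEN1 plasmid entered the comparison. The labels do not state that replicates were grown separately, so every p-value below measures only how these libraries vary, and that variation may be technical.

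KLF proteins bind GC-rich and CACCC-type DNA through zinc fingers at the C-terminal end, which are much alike across the family and shared with the related SP factors. The N-terminal parts differ and set whether a member activates or represses. KLF2, KLF4, KLF5 and KLF6 are mostly activators, KLF3 represses through the corepressor CtBP, and KLF9, KLF10, KLF11, KLF13 and KLF16 can recruit the corepressor SIN3A. In kidney, members of the family are known for roles in epithelial differentiation and in the response to injury.

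Sequences before start sites of KLF6, KLF11 and KLF4 are shown first. KLF and SP proteins bind GC boxes, and several KLF genes carry such boxes themselves. RefSeq windows (GRCh38.p14) of the 250 bases before a start site were found for 8 of the 10 members, with 10 windows in all, and not for KLF3 and KLF10. The stretches printed lie outside the exons of the same gene in GENCODE 29, 5′ to 3′ on the gene's strand. Those of KLF11 and KLF4 lie between exons, inside the span of their gene, and not upstream of the whole gene. KLF6 (chr10:3785282-3785459, minus strand) and KLF11 (chr2:10043971-10044174, plus strand, at the second of its 2 starts) rose in the comparison below, and KLF4 (chr9:107489770-107490019, minus strand) did not pass. Capitals mark matches on either strand to the GC box GGGCGG, the CACCC box CCACCC, the CCAAT box, the TATA box TATAAA, the cyclic AMP response element TGACGTCA, the AP-1 site TGANTCA, the ATF4 site TGATGNAA or the CArG box.
KLF6: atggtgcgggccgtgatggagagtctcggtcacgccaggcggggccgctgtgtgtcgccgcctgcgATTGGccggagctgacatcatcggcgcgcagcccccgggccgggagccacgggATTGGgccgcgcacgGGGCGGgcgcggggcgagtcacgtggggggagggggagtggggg
KLF11: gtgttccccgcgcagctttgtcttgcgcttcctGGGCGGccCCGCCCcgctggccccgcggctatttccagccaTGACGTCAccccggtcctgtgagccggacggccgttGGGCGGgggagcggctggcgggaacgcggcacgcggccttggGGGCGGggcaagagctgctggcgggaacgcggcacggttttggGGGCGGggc
KLF4: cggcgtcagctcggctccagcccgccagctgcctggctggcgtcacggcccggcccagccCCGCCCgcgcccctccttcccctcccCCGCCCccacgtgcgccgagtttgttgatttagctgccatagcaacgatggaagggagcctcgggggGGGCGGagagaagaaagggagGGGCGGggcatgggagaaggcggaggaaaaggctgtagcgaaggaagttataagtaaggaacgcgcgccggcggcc
The GC box occurred 1 time in the KLF6 stretch, 5 times in that of KLF11 and 4 times in that of KLF4. Over whole windows it was present for 7 of the 8 members with a window, and in 42.6% of the 35116 windows of the table. CCAAT, read in the KLF6 stretch on the other strand as ATTGG, was present for KLF5, KLF6, KLF9 and KLF13 and in 32.0% of all windows. The cyclic AMP response element was present for KLF11 alone among the 8, at its second start, and in 1.65% of all windows. The remaining motifs were found for at most 1 member each: the CACCC box for KLF13 (31.3% of all windows), the TATA box for KLF5 (10.7%), and the AP-1 site (6.57%), the ATF4 site (3.14%) and the CArG box (1.16%) for none. GC boxes were present in the stretches of KLF6, KLF11 and KLF4, and their part in the differences was not tested.

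Cells given NT1_hp2 held more mRNA of KLF6, KLF10 and KLF11 than the negative control. KLF6 was 1.60-fold, KLF10 1.43-fold and KLF11 1.22-fold the control level, in the ratio of group means. The other 7 members did not pass the test, and none was called lower. Of all 16362 genes tested, 5.00% were called higher and 8.92% lower (13.9% in either direction) by limma-trend on log2(FPKM + 1), at a p under 0.05 after Benjamini-Hochberg adjustment. FPKM is the deposited value, read numbers scaled to gene length and to a library size that the values imply. That size was 0.962 and 1.00 times the recovered reads in the control, and 1.03 and 1.04 times in NT1_hp2. Scaled to recovered totals instead, the median log2 difference of all tested genes was 0.05 and that of KLF6 was 0.68. In 8 of the 10 members both libraries of a group lay beyond both of the other, 5 higher and 3 lower, against 66.8% of all tested genes (32.0% higher and 34.8% lower), so separation by itself is near the background. Unadjusted p-values under 0.05 were found for 5 members and for 37.0% of all genes. The median difference was 0.12 over the 10 members and −0.01 over all tested genes. Mitochondrial transcripts took 6.03% and 5.89% of recovered reads in the control and 4.32% and 4.28% in NT1_hp2, and the part of that shift in the KLF differences was not tested. In bulk RNA, a change in how many cells hold a transcript and a change in its amount per cell cannot be told apart.

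**Figure D1:**
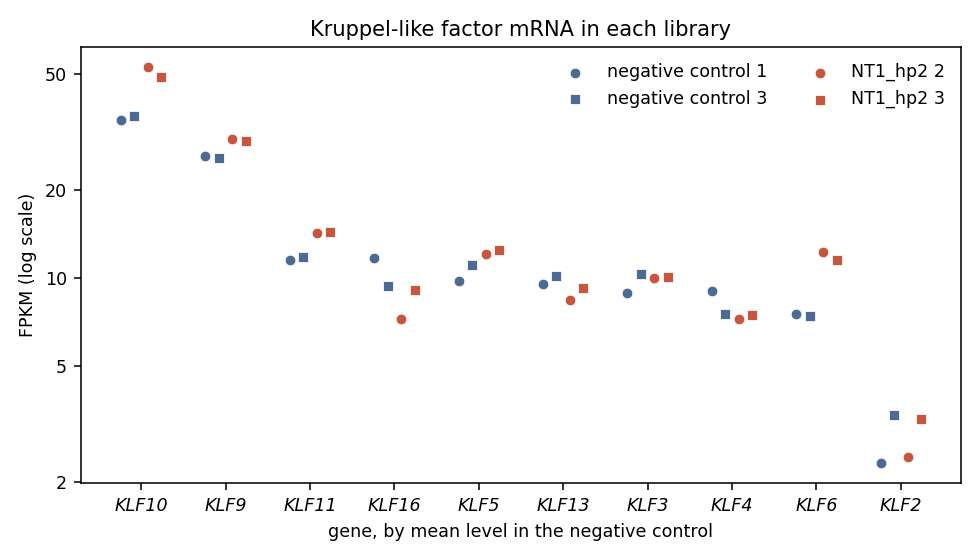
FPKM of the 10 KLF genes in each of the 4 libraries, on a log axis, with genes ordered by their mean in the negative control (blue) and NT1_hp2 in red; circles and squares are the replicates named in the key. KLF6 stands near 7.5 in both control libraries and above 11 in both NT1_hp2 libraries, whereas the KLF2 values of the groups interleave.

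Depth was similar in the 4 libraries, at 12557001 to 14972373 recovered reads, and 3 reads on a gene of 1 kilobase amounted to 0.208 to 0.239 FPKM, a floor that covers counting error only. KLF2 rested on 67 to 94 reads a library, and the other 9 members on 301 to 2985. The libraries of a group resembled each other more than those of the other group, with a chi-square of the recovered reads, per degree of freedom, of 5.68 within the control, 2.69 within NT1_hp2 and 13.2 to 28.3 between groups. The keratin genes KRT8 and KRT18, which mark simple epithelium, were abundant, at 84.2 to 112 and 54.4 to 77.7 FPKM. EPCAM, CDH1 and PAX2, markers of epithelium and of developing kidney, stayed under 1 FPKM in every library. Of the other listed markers, KRT19 was at 19.1 to 25.5, the cadherin gene CDH2 at 14.6 to 15.8 and LHX1 at 1.73 to 2.18 FPKM. The description of the line as epithelial thus rests on keratins here, with CDH2 expressed and CDH1 near 0. The 8 epithelial and HEK293 markers summed to 209 to 234 FPKM in the control and 178 to 179 in NT1_hp2, where KRT18 was called lower (log2 difference −0.41, SE 0.083, limma-trend adjusted p = 0.0440). KRT18 was at −0.17 (adjusted p = 0.115) and missed the threshold once length and GC trends were removed. The part of these markers in the KLF differences was not tested. Of 4 blood markers, PTPRC, CD3E and HBB were at 0 in all libraries, and the 4 endothelial markers summed to at most 0.462 FPKM.

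The activators are taken first. KLF6, a broadly expressed activator that is induced early after growth and stress signals, is encoded by ENSG00000067082 on chromosome 10 (3775996 to 3785281, minus strand, GRCh38). It was at 7.51 and 7.40 FPKM in control replicates 1 and 3 and at 12.3 and 11.5 FPKM in NT1_hp2 replicates 2 and 3. Both NT1_hp2 libraries were high and the groups did not overlap. On the log2(FPKM + 1) scale NT1_hp2 exceeded the control by 0.61, with an SE of 0.069 and a limma-trend adjusted p of 0.0340, from 7.46 ± 0.0769 to 11.9 ± 0.565 FPKM (mean ± SD, n = 2 each). By size this increase was the 223rd among the 818 genes called higher. The recovered reads numbered 1235 in the control and 2070 in NT1_hp2. Scaled to the library sizes implied by the FPKM values, their ratio was 1.60 (95% exact binomial interval 1.49 to 1.71, counting error only).

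KLF5, an activator of proliferating epithelial progenitors (ENSG00000102554, chromosome 13, 73054976 to 73077542), was measured at 9.78 and 11.04 FPKM in the control and at 12.04 and 12.5 FPKM in NT1_hp2. The groups did not overlap, but the control libraries differed from each other by more than the gap to the NT1_hp2 libraries. The log2 difference of 0.22 (SE 0.081) had a limma-trend adjusted p of 0.122 and did not pass. KLF4, which drives epithelial differentiation and restrains proliferation (ENSG00000136826, chromosome 9, 107484852 to 107490482), was at 9.02 and 7.50 FPKM in the control and 7.24 and 7.47 FPKM in NT1_hp2. Control replicate 3 and NT1_hp2 replicate 3 were nearly level. Its log2 difference was −0.14 (SE 0.10, limma-trend adjusted p = 0.353). The difference changed sign, to 0.03, once trends with gene length and GC content were removed from each library.

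KLF2, best known as the flow-responsive factor of endothelium (ENSG00000127528, chromosome 19, 16324817 to 16327874), had the lowest level of the 10. It was at 2.31 and 3.39 FPKM in the control and at 2.42 and 3.28 FPKM in NT1_hp2. The spread within each group exceeded the difference between the group means, 2.85 ± 0.768 and 2.85 ± 0.608 FPKM. The counting intervals of the control libraries overlapped too (95% Poisson, 1.79 to 2.93 and 2.71 to 4.19 FPKM). A change of KLF2 was not detected in these libraries. The read ratio, scaled to the library sizes implied by the FPKM values, was 1.01 (95% exact binomial interval 0.808 to 1.27).

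Among the SIN3A-binding members, KLF10 and KLF11 rose. Both were first described as early genes induced by transforming growth factor beta (TGF-beta). KLF10 (ENSG00000155090, chromosome 8, 102648779 to 102655902) was the most abundant member, at 34.8 and 35.97 FPKM in the control and 52.8 and 48.7 FPKM in NT1_hp2. The lowest NT1_hp2 library stood well clear of the highest control library. The log2 difference was 0.51 (SE 0.072, limma-trend adjusted p = 0.0340), from 35.4 ± 0.836 to 50.7 ± 2.91 FPKM. It was the 333rd largest of the 818 increases.

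KLF11 (ENSG00000172059, chromosome 2, 10042849 to 10054836) was at 11.5 and 11.8 FPKM in the control and 14.2 and 14.3 FPKM in NT1_hp2. The replicates lay close together in both groups. The log2 difference of 0.27 (SE 0.060) passed with a limma-trend adjusted p of 0.0499, at the edge of the threshold, and ranked 816th of the 818 increases. It did not pass without robust variance shrinkage (adjusted p = 0.0549) or after removal of length and GC trends (0.0729), with limma-trend in both. An antisense transcript shares 416 exon bases with KLF11, 9.07% of its exon length, and was listed at no more than 0.474 FPKM.

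KLF9, a hormone-responsive repressor induced by glucocorticoid and thyroid hormone (ENSG00000119138, chromosome 9, 70384597 to 70414624), was the second most abundant. It was at 26.2 and 25.9 FPKM in the control and 30.02 and 29.4 FPKM in NT1_hp2. The groups did not overlap, yet the log2 difference of 0.18 (SE 0.059) had a limma-trend adjusted p of 0.0950. It passed when libraries were scaled to their totals (adjusted p = 0.0383, log2 difference 0.26), with upper-quartile factors (0.0411, 0.25) and with limma-voom on recovered reads (0.00425, 0.27).

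KLF13, known as an activator of the chemokine gene CCL5 in T cells (ENSG00000169926, chromosome 15, 31326855 to 31435665), was at 9.51 and 10.1 FPKM in the control and 8.40 and 9.25 FPKM in NT1_hp2. Its log2 difference was −0.14 (SE 0.078, adjusted p = 0.262 by limma-trend) and went to −0.02 after removal of length and GC trends. KLF16 (ENSG00000129911, chromosome 19, 1852399 to 1863568) was at 11.7 and 9.35 FPKM in the control and 7.21 and 9.08 FPKM in NT1_hp2. Control replicate 3 and NT1_hp2 replicate 3 were close, and replicates of a group differed by about as much as the groups did. The log2 difference was −0.33 (SE 0.15, adjusted p = 0.176 by limma-trend) and changed sign, to 0.09, after the same correction. It was −0.19 without negative control replicate 1 or NT1_hp2 replicate 2, and −0.48 without negative control replicate 3 or NT1_hp2 replicate 3. Exons of KLF16 share 483 bases with an antisense transcript that was listed at 0 in all 4 libraries.

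KLF3, the CtBP-dependent repressor (ENSG00000109787, chromosome 4, 38664196 to 38701042), was at 8.83 and 10.3 FPKM in the control and 10.02 and 10.06 FPKM in NT1_hp2. NT1_hp2 lay within the range of the control libraries, and the log2 difference was 0.07 (SE 0.090, adjusted p = 0.640 by limma-trend), which became −0.03 after the length and GC correction. The antisense gene KLF3-AS1 shares 266 exon bases with KLF3 and stood at 0.454 to 0.598 FPKM. Pseudogene copies of KLF genes, which could take reads of their parents, were at most at 0.551 FPKM (KLF3P1).

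**Figure D2:**
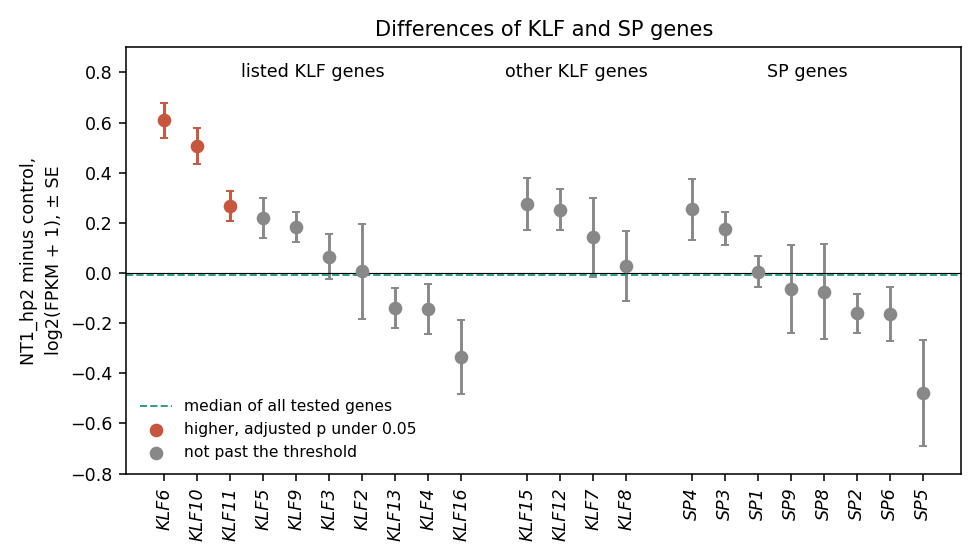
Difference between NT1_hp2 and the negative control in log2(FPKM + 1), with bars for ± SE from limma-trend (2 libraries a group), for the 10 listed KLF genes, the 4 other KLF genes that were tested and 8 SP genes; the dashed line is the median of all tested genes. KLF6 (0.61), KLF10 (0.51) and KLF11 (0.27) are past the threshold, and no SP gene is.

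As FPKM is per length, levels can be set side by side. In the control the order was KLF10, KLF9, KLF11, KLF16, KLF5, KLF13, KLF3, KLF4, KLF6 and KLF2. KLF10, KLF9 and KLF2 stood apart from their neighbours in that order, while each neighbouring pair from KLF11 (11.7 ± 0.187 FPKM) down to KLF6 (7.46 ± 0.0769) overlapped in its library values. In NT1_hp2 KLF6 moved from the 9th place to the 5th, next to KLF5 (12.3 ± 0.326 FPKM), with which its libraries overlapped, and KLF11 stood clear of KLF5. KLF13, KLF16 and KLF4 formed an overlapping run at 8.82 ± 0.599, 8.15 ± 1.32 and 7.35 ± 0.164 FPKM.

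The 10 members summed to 131 and 133 FPKM in the control and to 157 and 156 FPKM in NT1_hp2. The members that were not called summed to 77.4 and 77.6 FPKM in the control and 77.3 and 81.02 in NT1_hp2, a sum that holds KLF5 and KLF9 with higher values as well as KLF4, KLF13 and KLF16 with lower ones. Since the other 3 were separated off by their calls, this split is a description. KLF10 alone took 26.5% and 27.1% of the sum in the control and 33.7% and 31.3% in NT1_hp2. The share of KLF6 went from 5.73% and 5.58% to 7.85% and 7.40%.

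Ratios within a library do not depend on how libraries are scaled. KLF10 over KLF11 was 3.01 and 3.05 in the control against 3.71 and 3.40 in NT1_hp2, so KLF10 increased by more than KLF11. KLF6 over KLF4 was 0.833 and 0.986 in the control against 1.70 and 1.54, which put KLF6 below KLF4 in both control libraries and above it in both NT1_hp2 libraries. KLF5 over KLF4, a pair with opposed roles in epithelial proliferation, was 1.08 and 1.47 against 1.66 and 1.67. Both ratios to KLF4 can still carry trends with length and GC content: KLF5 holds 44.3% GC, KLF6 49.2% and KLF4 55.1%. With those trends removed, the log2 differences were 0.15 for KLF5, 0.60 for KLF6 and 0.03 for KLF4, from 0.22, 0.61 and −0.14. KLF4 over KLF2 overlapped between the groups, at 3.91 and 2.21 against 2.99 and 2.28. With 2 libraries a group an exact two-sided permutation test cannot give a p below 0.333, so these ratios carry no test.

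GC content moved with the differences. Over all tested genes, the median log2 difference was 0.18 for genes whose transcripts hold under 45% GC, 0.04 from 45% to 50%, −0.08 from 50% to 55%, −0.21 from 55% to 60% and −0.32 at 60% or more. The 6 members under 50% GC (44.3% to 49.2%) were KLF3, KLF5, KLF6, KLF9, KLF10 and KLF11, with differences of 0.07 to 0.61. The 4 members at 55.1% to 70.3% GC were KLF2, KLF4, KLF13 and KLF16, with differences of −0.33 to 0.01. After smooth trends with exon length and GC content were removed from each library, KLF6 was at 0.60 (SE 0.059, limma-trend adjusted p = 0.0407) and KLF10 at 0.47 (SE 0.057, adjusted p = 0.0438), and both passed, in a fit that called 0.673% of 16350 genes higher and 1.03% lower. KLF11 was at 0.25 and did not pass. KLF2 was then at 0.39 (SE 0.22, adjusted p = 0.319) and KLF5 at 0.15 (adjusted p = 0.317), neither past the threshold.

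**Figure D3:**
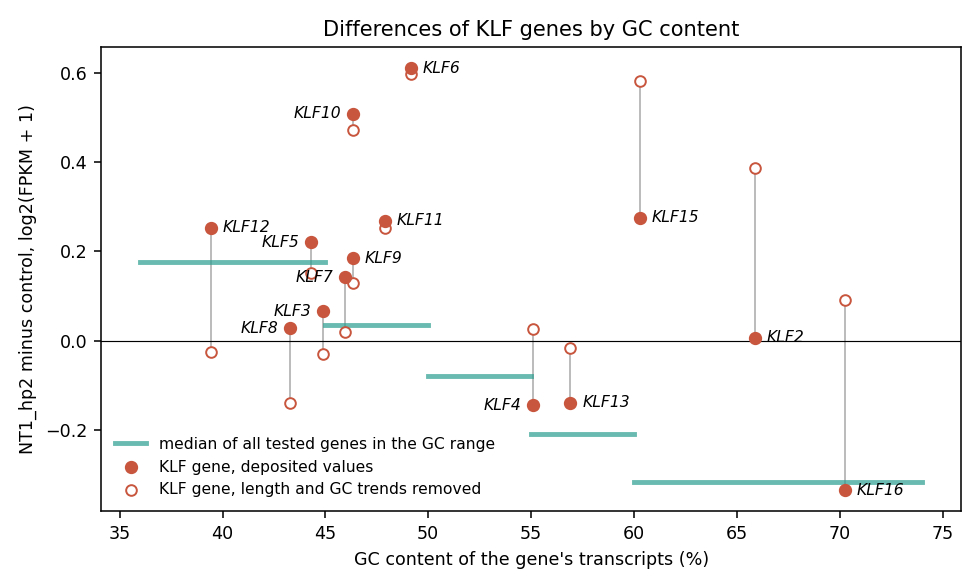
Difference between NT1_hp2 and the negative control on the log2(FPKM + 1) scale against the GC content (%) of each tested KLF gene's transcripts, from the deposited values (filled) and with length and GC trends removed (open); bars are medians of all tested genes in each GC range. Filled and open points nearly coincide for KLF6 and KLF10, while KLF16 goes from −0.33 to 0.09.

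The rest of the family was compared in the same fit. Of 8 other KLF genes, KLF7, KLF8, KLF12 and KLF15 were tested, with a median difference of 0.20. Of these, 0 of 4 passed, against 5.00% called higher and 8.92% called lower among all tested genes. For 2 of the 4 the unadjusted limma-trend p was under 0.05, against 37.0% of all tested genes. KLF12, a CtBP-dependent repressor like KLF3, was at 6.99 and 7.61 FPKM in the control and 9.28 and 8.52 FPKM in NT1_hp2 (log2 difference 0.25, limma-trend adjusted p = 0.0939), a difference of −0.03 after the length and GC correction. KLF15, known from podocytes and from the control of metabolism, was at 2.95 and 2.52 FPKM against 3.58 and 3.44 FPKM (0.27, adjusted p = 0.128), and at 0.58 (adjusted p = 0.0551) after the correction, limma-trend in both. KLF7 and KLF8 were at 1.27 to 1.72 FPKM. KLF14, chosen here after its values were seen, was under the filter at 0.496 and 0.839 FPKM in the control and 0.0963 and 0.239 FPKM in NT1_hp2. It had 52 reads against 14. Scaled to the library sizes implied by the FPKM values, the ratio was 0.256 (95% exact binomial interval 0.131 to 0.469), which compares these libraries and not the conditions.

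Of the 9 SP genes, 8 were tested and none passed (median difference −0.07), against 5.00% called higher and 8.92% called lower among all tested genes. An unadjusted p under 0.05 was found for 1 of the 8, against 37.0% of all tested genes. SP1, the ubiquitous activator at GC boxes, was at 29.5 and 31.1 FPKM in the control and 30.3 and 30.6 FPKM in NT1_hp2. SP2, SP4, SP6, SP8 and SP9 were at 0.971 to 11.7 FPKM, with differences of −0.16 to 0.25. SP3, which binds the same sites as SP1, was at 8.66 and 9.05 against 10.3 and 10.01 FPKM (log2 difference 0.18, limma-trend adjusted p = 0.127). SP5, a target of Wnt signalling, had 2.09 FPKM in both control libraries and 1.65 and 0.855 FPKM in NT1_hp2 (−0.48, adjusted p = 0.171).

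Genes around the KLF factors were taken from lists of cofactors, ubiquitin ligases, upstream pathways and reported targets. Among 13 cofactors 1 was called lower and none higher (median −0.02), against 8.92% and 5.00% of all tested genes. HDAC1, the histone deacetylase of SIN3 complexes, was at 86.7 and 84.3 FPKM in the control and 67.1 and 61.8 FPKM in NT1_hp2 (log2 difference −0.40, SE 0.074, limma-trend adjusted p = 0.0397). The acetyltransferase gene KAT2A was at 35.5 and 29.99 against 26.6 and 25.1 FPKM (−0.32, adjusted p = 0.0847). HDAC2 and HDAC3, at 16.7 to 22.5 FPKM, and SIN3A itself (11.1 and 11.5 against 11.6 and 11.7 FPKM) did not pass either. Of 8 ubiquitin ligases that act on KLF proteins 0 passed with limma-trend. An unadjusted p under 0.05 was found for 3 of the 8, near the 37.0% of all tested genes. The closest to the threshold was ITCH, a ligase of KLF10, at 13.7 and 16.2 against 19.8 and 20.4 FPKM (0.40, limma-trend adjusted p = 0.0529). VHL, the substrate receptor of another ligase, was at 20.7 and 21.5 against 24.9 and 25.5 FPKM (0.25, adjusted p = 0.0585), and WWP1 overlapped between the groups, at 7.33 to 10.01 FPKM.

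The MEK5-ERK5-MEF2 pathway induces KLF2 and KLF4 in endothelium. Against 5.00% higher and 8.92% lower among all tested genes, 2 of its 7 genes rose and none fell (median 0.01). They were the transcription factor MEF2A, at 15.1 and 14.8 against 22.2 and 21.4 FPKM (log2 difference 0.52, SE 0.061), and the kinase MAP3K2, at 8.53 and 9.32 against 12.8 and 12.6 FPKM (0.47, SE 0.072), each with a limma-trend adjusted p of 0.0340. MAP3K3, the sister kinase of MAP3K2, was at 10.3 and 9.79 against 8.28 and 8.14 FPKM (−0.26, limma-trend adjusted p = 0.0616), opposite in sign. MEF2D and MAP2K5, the gene of MEK5, overlapped between the groups at 6.36 to 7.91 FPKM. ERK5 itself, encoded by MAPK7, was at 6.54 and 5.45 against 3.86 and 5.37 FPKM and did not pass. KLF2 and KLF4, the endothelial targets of the pathway, did not pass either.

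Of 7 tested genes of the glucocorticoid receptor list, 1 fell and none rose (median −0.12), against 8.92% and 5.00% of all tested genes. TSC22D3, a glucocorticoid-induced leucine zipper gene, was at 33.2 and 30.4 against 24.9 and 24.1 FPKM (log2 difference −0.36, SE 0.072, limma-trend adjusted p = 0.0428). The phosphatase gene DUSP1 (74.5 and 66.9 against 69.8 and 62.7 FPKM) and NFKBIA, the gene of an inhibitor of NF-kappaB (23.9 and 21.4 against 23.5 and 23.98 FPKM), overlapped between the groups. The clock gene PER1 was at 16.5 in both control libraries against 14.1 and 16.2 FPKM and did not pass.

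None of the 11 genes of the TGF-beta list passed with limma-trend, beside the increases of KLF10 and KLF11 (list median 0.13). Among all tested genes 5.00% were called higher and 8.92% lower. An unadjusted p under 0.05 was found for 5 of the 11, against 37.0% of all tested genes. SKIL, which encodes a repressor of SMAD signalling and is itself induced by TGF-beta, was at 9.35 and 10.9 against 14.03 and 12.8 FPKM (log2 difference 0.37, limma-trend adjusted p = 0.0624). ID1, the most abundant of the list, was at 131 and 124 against 123 and 116 FPKM, and the ligand gene TGFB1 at 36.4 and 35.3 against 31.5 and 32.4 FPKM (−0.16, adjusted p = 0.130). The feedback inhibitor SMAD7, which KLF10 and KLF11 are reported to repress, was at 9.05 and 9.25 against 6.39 and 7.99 FPKM (−0.32, adjusted p = 0.112).

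Of 16 reported KLF target genes, 11 were tested, 1 fell and none rose (median −0.18), against 8.92% and 5.00% of all tested genes. CDKN1A, the cell cycle inhibitor gene that KLF4 and KLF6 are reported to activate, was at 175 and 147 against 114 and 116 FPKM (log2 difference −0.48, SE 0.11, limma-trend adjusted p = 0.0489). The cyclin gene CCNB1 was at 59.03 and 51.7 against 43.7 and 42.6 FPKM (−0.35, adjusted p = 0.0579), and TXNIP, a thioredoxin-binding protein gene, at 70.1 and 63.9 against 85.9 and 79.3 FPKM (0.30, adjusted p = 0.0735), neither past the threshold. ODC1, the gene of ornithine decarboxylase, overlapped between the groups at 64.8 to 73.2 FPKM. HDAC1, MEF2A, MAP3K2, TSC22D3 and CDKN1A all missed the threshold once length and GC trends were removed, at −0.35, 0.36, 0.16, −0.22 and −0.21 on the log2 scale with limma-trend adjusted p-values of 0.0575, 0.0501, 0.147, 0.0911 and 0.127.

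**Figure D4:**
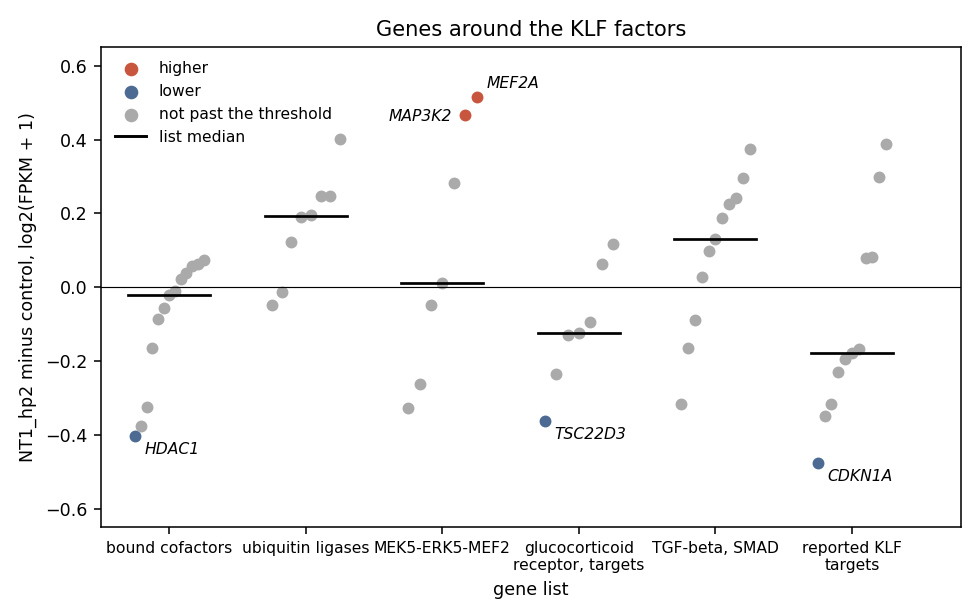
Difference between NT1_hp2 and the negative control on the log2(FPKM + 1) scale for each tested gene of 6 lists around the KLF factors, with colour for genes called higher or lower and a line at each list's median. MEF2A and MAP3K2 are the 2 genes called higher, and HDAC1, TSC22D3 and CDKN1A are called lower.

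To place the 3 increases among all genes, the genes nearest in profile were taken: those with a symbol and a mean of at least 5 FPKM whose deviations over the 4 libraries lay closest. For KLF6 they included DNAJB9 and IFRD1, of 8309 candidates, at distances of 0.0311 and 0.0382 in log2(FPKM + 1). DNAJB9, an endoplasmic reticulum co-chaperone gene, was at 7.20 and 7.07 against 12.03 and 11.3 FPKM. For KLF10 they were RHOQ, TRIQK and PHF10 (distances 0.00478 to 0.0218), and RHOQ was at 15.2 and 15.6 against 23.3 and 21.4 FPKM. For KLF11 they were AIG1, MAP7D3 and ITGA6 (0.00597 to 0.0113), of which none passed the test on its own. With 4 libraries such likeness is a description only.

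How far the member differences rest on settings was examined last. KLF6 and KLF10 passed in 8 of 9 alternatives that kept all libraries and KLF11 in 6. All 3, like KLF5 and KLF9, had a positive difference with any 1 library left out. In these 5 genes both NT1_hp2 libraries lay above both control libraries, as in 32.0% of all tested genes. Leaving out 1 library could therefore not change their sign. Their differences were also positive in each of the 9 alternatives that kept all libraries. The share of all genes called higher in those fits was 6.52% with median-of-ratios factors, 9.07% with upper-quartile factors, 9.47% with library totals, 20.5% with limma-voom, 4.22% without robust shrinkage, 5.18% with a pseudocount of 0.1, 9.87% with at least 1 FPKM in all 4 libraries, 0.673% with the trends removed and 0.00% without a filter. The fit without a filter was the 1 in which neither KLF6 nor KLF10 passed. With any 1 library left out none of the 10 passed with limma-trend, in fits that called 0 or 1 of 16362 genes. KLF6 then stayed at 0.56 to 0.65 (unadjusted p = 0.0020 to 0.0039, limma-trend adjusted p = 0.0612 to 0.185).

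**Figure D5:**
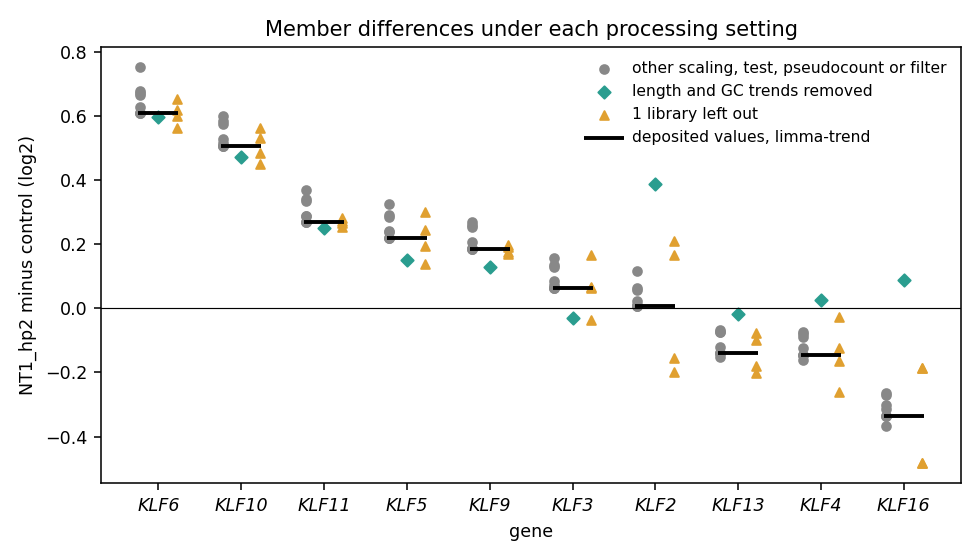
Difference between NT1_hp2 and the negative control (log2) of each KLF gene from the deposited values (black bars) and under other settings: scaling, test, pseudocount or filter (grey), length and GC trends removed (green) and 1 library left out (orange). KLF5, KLF6, KLF9, KLF10 and KLF11 stay above 0 throughout, KLF13 stays below it, and KLF2, KLF3, KLF4 and KLF16 fall on both sides. Where the groups do not overlap (all but KLF2 and KLF3), leaving out 1 library cannot change the sign.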

How the data were processed

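The authors deposited 1 table per library with a value for each of 58736 features. The deposited values were taken as FPKM, inferred from the values: multiplied by the summed exon length in GENCODE 29, 100% of values above 0 were whole multiples of 1 step per library within 0.01, which recovered the reads. Per the submitters' processing notes the build is GRCh38.p12. How reads were aligned, counted and normalized is not given in the sources used here. The library kit named in the labels' protocols does not mark strand.

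Genes reaching 1 FPKM in 2 or more libraries were compared as log2(FPKM + 1), which understates changes of low genes, with limma 3.58.1 (trend, robust shrinkage) in R 4.3.3. Benjamini-Hochberg adjustment covered all 16362 genes tested. The code was tested on simulated data. Trends with length and GC content were removed with mgcv 1.9.3. Scaling, limma-voom, pseudocount, filters and omitted libraries were alternatives.

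The members and lists were chosen with earlier results of these data known. By rule, all members, every called gene of a list, up to 3 of its most abundant others, and each tested KLF or SP gene could be named; KLF14, SIN3A, MAPK7 and SMAD7 were added after values were seen. One of the genes nearest to KLF6 is not reported here.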

Additional observations from a re-analysis of the deposited data

How the results depend on the processing

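Of 90 values of the 10 members under the 9 alternatives that kept all libraries, 78 kept their direction and side of the threshold. KLF3 (−0.030), KLF4 (0.027) and KLF16 (0.090) changed sign when length and GC trends were removed. KLF5 passed with limma-voom (log2 difference 0.32, adjusted p = 0.0130), and KLF9 with upper-quartile factors (0.25), library totals (0.26) and limma-voom (0.27). Without the filter no member passed, with KLF6 at 0.61, KLF10 at 0.51 and KLF11 at 0.27 (limma-trend adjusted p = 0.134, 0.134 and 0.146). KLF11 also missed without robust shrinkage (0.27) and after the trend removal (0.25). Members called higher numbered 5 with limma-voom, which called 20.5% of all tested genes higher, and 0 without the filter, where 0.00% were.

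Leaving out 1 library at a time gave 0 members and 0 other list genes called in either direction, and over all genes 0 higher and 0 to 1 lower by limma-trend, with 3315 to 5836 genes at an unadjusted p under 0.05. KLF6 ranged from 0.56 to 0.65, KLF10 from 0.45 to 0.56 and KLF11 from 0.25 to 0.28, while KLF2 ranged from −0.20 to 0.21 and KLF3 from −0.036 to 0.17. KLF4 ranged from −0.26 to −0.03, KLF5 from 0.14 to 0.30, KLF9 from 0.17 to 0.20, KLF13 from −0.20 to −0.08 and KLF16 from −0.48 to −0.19. KLF4 was nearest 0 without negative control replicate 1, and KLF13 without NT1_hp2 replicate 2. KLF2 was negative (−0.20 and −0.16) without negative control replicate 1 or NT1_hp2 replicate 3, and KLF3 (−0.036) without negative control replicate 1.

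Over all genes 818 were higher and 1460 lower, 35.9% of calls being higher. This was 1484 and 1428 with upper-quartile factors (51.0%), 1549 and 1328 with library totals (53.8%), 3359 and 2435 with limma-voom (58.0%), 1374 and 2273 with 1 FPKM in all 4 libraries, 110 and 169 after trend removal, and 0 and 0 without the filter, where 6778 genes had an unadjusted p under 0.05. List genes other than members and markers were called 2 higher and 3 lower. The higher calls became 6 with median-of-ratios factors, 7 with upper-quartile factors, library totals or 1 FPKM in all libraries, 18 with limma-voom and 0 without the filter or after trend removal. The lower calls became 6 with limma-voom or 1 FPKM in all libraries, and 0 without the filter or after trend removal. No paired analysis was possible because the groups share only replicate number 3. The cause of these shifts was not tested.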
